A study of Mus musculus with 18 samples.

Results

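The set described here is 28 mouse genes of cholesterol synthesis, its regulation and intracellular sterol transport, out of 24614 genes in the deposited tables. Members are given by gene name; the rule itself sets no threshold on a measured value. There are 18 synthesis genes (Acat2, Hmgcs1, Mvk, Pmvk, Mvd, Idi1, Fdps, Fdft1, Sqle, Lss, Cyp51, Tm7sf2, Msmo1, Nsdhl, Hsd17b7, Ebp, Sc5d and Dhcr7). A further 4 regulate the pathway (Srebf2, Scap, Insig1 and Insig2), and 6 move or store sterols (Npc1, Npc2, Stard3, Stard4, Stard5 and Soat1). RNA was sequenced from conventional dendritic cells (cDC) of C57BL/6 mouse spleen, either wild type (WT) or lacking ADAM10 (KO), a membrane protease that sheds surface proteins and opens Notch receptors to signalling. Live CD11c+ MHC class II+ cells were sorted as CD4+ cDC2, as cDC2 negative for CD4 and CD8 (CD4-CD8-), or as CD8+ cDC1, which gave 6 groups of 3 libraries. All groups share strain, tissue and sort. The sources used here do not give the deletion strategy or Cre driver, the age of the mice, or whether libraries came from separate or pooled mice. The p-values therefore reflect only library-to-library variation, part of which may be technical.

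Cholesterol is built from acetyl-CoA through mevalonate, isoprenoid diphosphates and squalene, which is closed to lanosterol and then trimmed and rearranged to cholesterol. The transcription factor SREBP2, the product of Srebf2, is escorted by SCAP out of the endoplasmic reticulum when sterols are scarce and is held there by the INSIG proteins when sterols are plentiful. Cholesterol taken up in lipoproteins follows another route: NPC2 and NPC1 carry it out of late endosomes and lysosomes, START-domain proteins move it between membranes, and SOAT1 esterifies it for storage.

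Libraries held between 12358884 and 19557469 estimated counts, and 13381 genes entered the tests, all 28 members among them. Levels are given as CPM (counts relative to library size, scaled by the TMM method) when one gene is compared between groups, and as TPM (relative transcript abundance, which allows for length) when genes are compared with each other. Differences are log2 fold changes with the standard error of the fit, and "rose", "fell" and "called" mean a Benjamini-Hochberg adjusted p under 0.05 in edgeR's quasi-likelihood test over all genes tested (n = 3 libraries per group). Adam10 was lower in every KO library than in any WT library of the same population (log2 -1.18 ± 0.22 in CD4+, -1.25 ± 0.22 in CD4-CD8- and -1.15 ± 0.23 in CD8+ cells). Some Adam10 RNA remained: WT against KO levels were 80.5 to 130 against 41.6 to 45.9 CPM in CD4+ libraries. They were 88.3 to 138 against 41.7 to 47.4 CPM in CD4-CD8- and 57.0 to 99.0 against 28.7 to 36.4 CPM in CD8+ libraries. WT library 3 was the highest in each population. Markers of cDC1 summed to 5645 to 6782 CPM in WT and 7051 to 7257 CPM in KO CD8+ libraries. WT against KO sums were 266 to 302 against 449 to 571 CPM in CD4+ libraries. In CD4-CD8- libraries they were 613.5 to 753 against 903 to 1346 CPM. For cDC2 markers the sums were 132 to 195 against 35.6 to 56.1 CPM in CD8+ libraries. They were 1886 to 1970 against 2394 to 2664 CPM in CD4+ and 939 to 1149 against 1568 to 1751 CPM in CD4-CD8- libraries. Single cDC2 markers moved both ways, with log2 changes from -4.95 to 5.03 in CD4+ cells. Red pulp macrophage markers (9 of 9 detected, none at 0 in any group) ran from 172 to 208 CPM in WT and from 770 to 850 CPM in KO CD4+ libraries. In CD4-CD8- libraries they ran from 110 to 158 CPM in WT and from 285 to 339 CPM in KO, and in CD8+ libraries from 78.0 to 106 CPM in WT and from 47.6 to 78.0 CPM in KO. NK cell markers (213 to 566 CPM) and T cell markers (133 to 278 CPM) were highest in WT CD4-CD8- libraries and ran from 23.1 to 65.2 and from 11.2 to 49.6 CPM in the KO libraries of that population. In such bulk libraries, fewer cells of a type and less RNA per cell cannot be told apart.

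Promoter sequence was looked at because SREBP2 acts on a short element (the sterol regulatory element) together with NF-Y and Sp1, and because the genes printed here span the range of responses: Hmgcs1, which holds a sterol element-like match, Mvd, the synthesis gene with the largest rise, and Npc2 and Stard5, which had the largest changes of the set. RefSeq windows for GRCm38.p6 (250 bases before each annotated start, both strands searched) were found for 23 of the 28 members. The lines give 5′ to 3′ sequence of the gene's own strand with matches in capitals, where CCAAT or ATTGG is the NF-Y box, GGGCGG or CCGCCC the Sp1 box, and TCACNCCAC the loose sterol element. For Npc2 and Stard5 only the run free of annotated exons is shown. Positions are chr13:119690101-119690350 (plus strand) for Hmgcs1, chr8:122443423-122443672 (minus strand) for Mvd, chr12:84773153-84773250 (minus strand) for Npc2 and chr7:83631881-83631958 (plus strand) for Stard5.
Hmgcs1: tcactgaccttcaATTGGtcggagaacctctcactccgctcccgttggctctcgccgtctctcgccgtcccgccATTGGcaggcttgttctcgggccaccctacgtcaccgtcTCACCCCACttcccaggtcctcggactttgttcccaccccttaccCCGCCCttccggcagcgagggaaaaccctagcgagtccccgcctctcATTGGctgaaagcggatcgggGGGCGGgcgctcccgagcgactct
Mvd: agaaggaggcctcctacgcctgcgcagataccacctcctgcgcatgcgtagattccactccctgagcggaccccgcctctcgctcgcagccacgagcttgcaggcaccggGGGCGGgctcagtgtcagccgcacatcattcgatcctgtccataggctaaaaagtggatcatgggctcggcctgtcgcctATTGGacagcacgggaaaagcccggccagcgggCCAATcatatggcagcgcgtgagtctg
Npc2: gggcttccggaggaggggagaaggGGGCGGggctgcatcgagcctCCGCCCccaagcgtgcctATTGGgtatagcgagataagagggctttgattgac
Stard5: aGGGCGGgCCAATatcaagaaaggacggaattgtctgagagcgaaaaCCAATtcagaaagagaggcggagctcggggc
The full element, which is the loose one with an A before it and C at the open position, was in 0 of 29 member windows and in 0.0731% of all 32851 windows. The loose form was in Hmgcs1 and Stard3 and in 1.05% of all windows. CCAAT was in 72.4% of the 29 member windows against 33.8% of all windows, and GGGCGG in 79.3% against 32.7%. Some members have more than 1 window. These matches describe letters in a window and are not measured binding.

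Levels differed widely among the members. Mean TPM over 18 libraries was 134 for Npc2, the lysosomal sterol carrier, 60.8 for Fdps, which makes farnesyl diphosphate, and 59.5 for Srebf2. The lowest were Hsd17b7 (2.35 TPM) and Tm7sf2 (2.65 TPM), which both act on sterol intermediates after lanosterol. Some TPM rest on short transcripts with few reads. Dhcr7, the last reductase of the pathway, had 57.1 TPM, of which 1 processed transcript held 82.3% ± 4.91 in WT CD4+ cells (SD, n = 3) with 4.09% of the gene's counts. Insig2 had 54.2 TPM, of which 1 transcript held 69.7% ± 13.7 in the same cells with 5.47% of the counts. For Npc2, the main coding transcript held 50.3% ± 3.90 of the TPM and 71.5% of the counts there, and the rest lay in annotated retained-intron transcripts.

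Summed over the 18 synthesis genes, TPM were 307 ± 10.8 in WT and 305 ± 4.30 in KO libraries of CD4+ cDC2 (SD, n = 3). They were 435 ± 15.0 against 394 ± 12.0 in CD4-CD8- cDC2 and 403 ± 45.8 against 329 ± 13.2 in CD8+ cDC1. WT and KO sums overlapped in CD4+ cells and did not overlap in the other populations. With protein-coding transcripts only, the overlap was the other way round in CD4+ and CD8+ cells: WT against KO sums were 205 ± 5.73 against 187 ± 3.48 TPM in CD4+ (no overlap), 292 ± 6.73 against 268 ± 4.43 in CD4-CD8- (no overlap) and 284 ± 34.3 against 235 ± 23.1 in CD8+ libraries (overlap). The 6 transport genes summed to 208 ± 9.75 and 294 ± 27.6 TPM in WT and KO CD4+ cells, to 211 ± 18.6 against 259 ± 13.2 for CD4-CD8- and 238 ± 11.2 against 264 ± 15.1 for CD8+ cells. These higher KO sums rest on Npc2, with means of 66.6 against 178, 80.6 against 156 and 132 against 193 TPM in the same order. Every other transport gene had a lower mean TPM in KO than in WT, except Stard3 in CD4-CD8- cells (17.1 against 18.1). The 4 regulation genes summed to 169 ± 5.30 TPM in WT against 135 ± 22.4 in KO CD4+ libraries. Their CD4-CD8- sums were 180 ± 10.7 against 172 ± 10.7 TPM, and the CD8+ sums 178 ± 7.84 against 185 ± 19.99 TPM. On the log2(TPM + 1) scale the median of all genes was itself shifted in KO against WT by -0.09, -0.18 and -0.13 in CD4+, CD4-CD8- and CD8+ cells, so TPM sums carry that shift, whereas CPM differences below do not. On that scale the calls over all genes split as 1132 higher and 2254 lower in CD4+ cells, 605 against 2975 in the CD4-CD8- and 264 against 1364 in the CD8+ population.

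**Figure D1:**
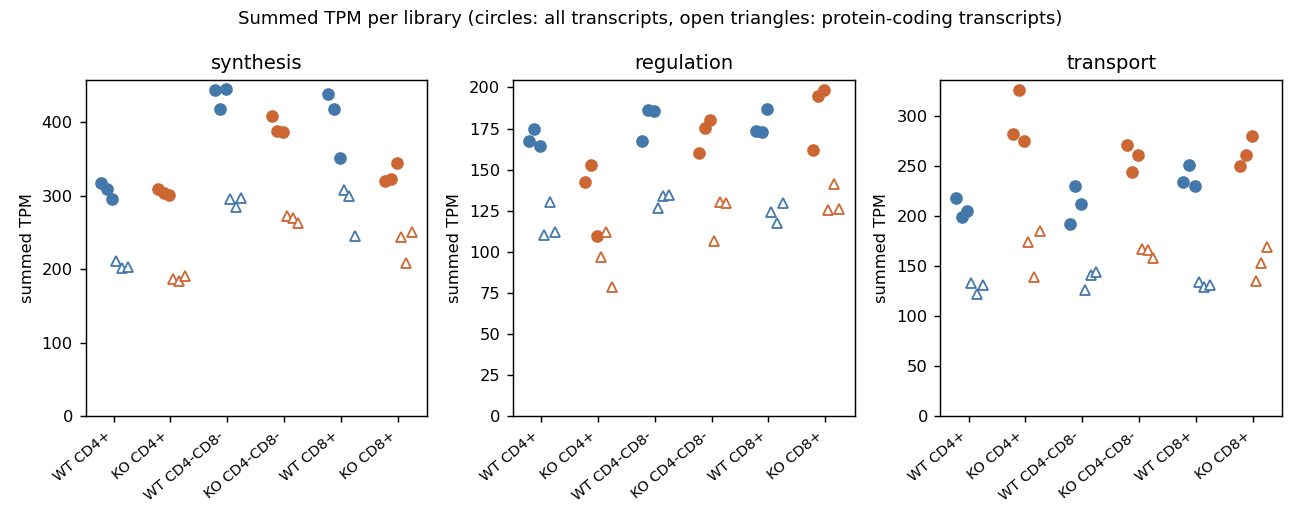
Summed TPM of the synthesis, regulation and transport genes in each of the 18 libraries (blue WT, orange KO; circles for all transcripts, open triangles for protein-coding transcripts only). Every KO CD4+ library lies above every WT CD4+ library for transport. Over all transcripts, Npc2 was the only transport gene with a higher mean TPM in KO there.

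The effect of ADAM10 deficiency on the whole set was mixed. In CD4+ cells 5 members rose, 7 fell and 16 did not pass, so that 42.9% were called against 35.1% of all genes tested (18.5% higher and 16.6% lower). In CD4-CD8- cells 5 rose and 1 fell (21.4%, against 25.9% of all genes, with 14.6% higher and 11.3% lower). In CD8+ cells 2 rose and 2 fell (14.3%, against 15.7% of all genes, with 7.01% higher and 8.68% lower). These shares lie near the background in all populations, and the calls among members are therefore described gene by gene. The median log2 change of the members was -0.01, 0.07 and -0.02 in CD4+, CD4-CD8- and CD8+ cells, beside 0.02, 0.02 and 0.00 for all genes. The medians for synthesis genes alone were -0.01, 0.14 and -0.02.

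**Figure D2:**
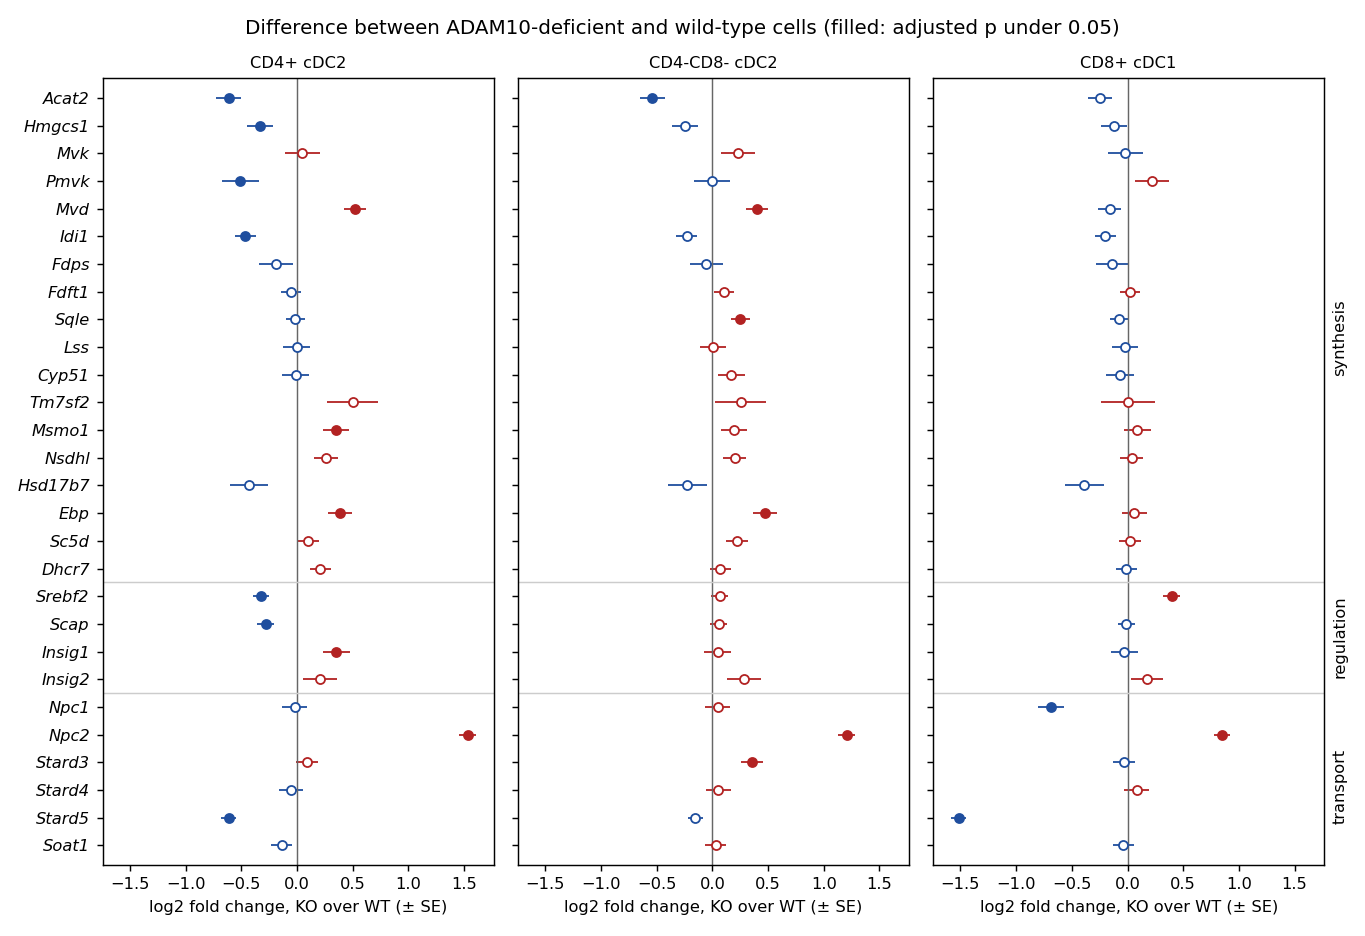
Log2 fold change of each member, KO over WT, with its standard error in the 3 populations (filled points passed the test; red above 0, blue below). Npc2 lies to the right in all panels, at 1.53, 1.21 and 0.85, and Stard5 farthest to the left in CD8+ cells, at -1.52.

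Synthesis genes moved in both directions in CD4+ cells, where 3 rose and 4 fell, and none was called in CD8+ cells. The falls in CD4+ cells were all at steps up to the isoprenoid units (Acat2, Hmgcs1, Pmvk and Idi1), and the rises were Mvd, also before that point, and the later enzymes Msmo1 and Ebp. Without WT library 3 the count of rises in CD4+ cells was 1, and without WT library 1 or KO library 2 the count of falls was 2. In CD4-CD8- cells Mvd, Sqle and Ebp rose and Acat2 fell. No synthesis gene was called higher there on log2(TPM + 1) or log2(TPM + 0.1). In CD8+ cells the 18 log2 changes ran from -0.39 (Hsd17b7, adjusted p 0.166) to 0.22 (Pmvk, adjusted p 0.398), with 0 called by edgeR and 0 by DESeq2. At an unadjusted p under 0.05, 0 were higher and 2 lower there (Acat2 and Hsd17b7). On log2(TPM + 1), on log2(TPM + 0.1) and with a length offset, 1 synthesis gene was called lower in CD8+ cells.

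Acat2, a thiolase that joins acetyl-CoA units in the cytosol (chromosome 17, 12942890 to 12960747, minus strand, GRCm38), was measured at 13.4, 14.2 and 15.9 CPM in WT CD4+ libraries and at 9.84, 9.74 and 8.74 CPM in KO. WT CD4-CD8- libraries held 18.9, 15.4 and 17.5 CPM and KO 11.7, 12.5 and 11.5 CPM. In CD8+ cells the values were 15.0, 13.4 and 12.6 in WT and 12.3, 10.3 and 12.0 CPM in KO. KO libraries lay below WT in all populations without overlap, and the fall was called in CD4+ cells (log2 -0.61 ± 0.11, adjusted p 0.00035) and CD4-CD8- cells (-0.54 ± 0.11, adjusted p 0.00164) but not in CD8+ cells (-0.25 ± 0.11, adjusted p 0.157). With protein-coding transcripts only, the CD4+ value was -0.33 and not called (adjusted p 0.101). Acat2 shares sequence with Tcp1, a chaperonin gene transcribed from the opposite strand that was not called in any population.

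Mvd, the decarboxylase that makes isopentenyl diphosphate (chromosome 8, 122433601 to 122443422, minus strand), held 27.7, 29 and 30.8 CPM in WT CD4+ and 44.6, 44.7 and 36.4 CPM in KO CD4+ libraries. WT CD4-CD8- libraries had 36.3, 36.4 and 39.6 CPM, compared with KO at 52.5, 47.0 and 48.5 CPM. Values in CD8+ cells were 33.8, 31.9 and 27.1 CPM in WT, against 29.5, 28.2 and 25.3 CPM in KO. KO was above WT without overlap in both cDC2 populations and overlapped WT in cDC1. The rise was 0.52 ± 0.10 in CD4+ (adjusted p 0.000499) and 0.40 ± 0.10 in CD4-CD8- cells (adjusted p 0.00623), beside -0.16 ± 0.10 in CD8+ cells (adjusted p 0.325). The effect itself differed from that in CD8+ cells by 0.69 ± 0.14 for CD4+ (adjusted p 0.00189) and by 0.56 ± 0.14 for CD4-CD8- cells (adjusted p 0.0136), comparisons that share the CD8+ libraries.

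Pmvk, the kinase of the step before Mvd (chromosome 3, 89454541 to 89469013, plus strand), had 20.5, 21.8 and 18.3 CPM in WT CD4+ libraries and 19.0, 12.3 and 11.1 CPM in KO. KO library 1 lay within the WT range and the other two below it. In CD4-CD8- libraries the level was 25.4, 21.4 and 22.3 CPM in WT, against 26.4, 22.4 and 20.2 CPM in KO, and in CD8+ libraries 43.3, 40.4 and 38.1 CPM in WT, against 53.3, 44.4 and 44.2 CPM in KO. The fall in CD4+ cells was -0.51 ± 0.16 (adjusted p 0.0226), the change in CD8+ cells 0.22 ± 0.16 (adjusted p 0.398), and the effects differed by -0.73 ± 0.23 (adjusted p 0.0274). Leaving out any of 4 of the 6 CD4+ libraries (WT 1, WT 2, KO 2 or KO 3) ended the call in CD4+ cells (log2 -0.79 to -0.37 over the 6 fits).

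Ebp, the isomerase that shifts the sterol ring double bond (chromosome X, 8185329 to 8193512, minus strand), held 39.5, 43.6 and 38.8 CPM in WT CD4+ and 56.3, 50.8 and 52.5 CPM in KO CD4+ libraries. WT CD4-CD8- libraries held 47.2, 41.6 and 34.6 CPM, compared with KO at 56.9, 60.8 and 53.7 CPM. CD8+ libraries held 53.7, 52.1 and 44.0 CPM in WT, against 58.2, 51.2 and 46.8 CPM in KO. The genotypes were separate in both cDC2 populations and mixed in cDC1. The rise was 0.39 ± 0.11 in CD4+ (adjusted p 0.0116) and 0.47 ± 0.11 in CD4-CD8- cells (adjusted p 0.00447), and its difference from the CD8+ effect (0.06 ± 0.11) was not called for either (adjusted p 0.158 and 0.0982). The CD4-CD8- rise of Ebp was not called on either TPM scale.

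Fdps, the synthesis gene with the highest mean TPM (chromosome 3, 89093588 to 89101959, minus strand), was at 59.6, 62.4 and 56.9 CPM in WT CD4+ libraries and at 55.8, 52.4 and 48.3 CPM in KO. CD4-CD8- libraries held 101, 89.4 and 85.0 CPM in WT, against 97.3, 88.1 and 80.0 CPM in KO, and CD8+ libraries 138, 144 and 101 CPM in WT, against 149, 97.7 and 103 CPM in KO. The changes were -0.19 ± 0.15, -0.05 ± 0.15 and -0.14 ± 0.15 (adjusted p 0.361, 0.833 and 0.618), smaller than the spread among CD8+ libraries of either genotype. Of the other synthesis genes called in CD4+ cells, Idi1, the isomerase of the isoprenoid units, fell from 83.8 to 60.8 CPM (log2 -0.46 ± 0.10, adjusted p 0.00127). Idi1 is identical over 684 bases to Gm13502, which averaged 12.9 CPM and had a change of -0.54 ± 0.23 there (adjusted p 0.0866), so reads could be split between them. Hmgcs1, which makes HMG-CoA, fell from 88.1 to 69.8 CPM (-0.34 ± 0.12, adjusted p 0.0327), and Msmo1, a sterol methyl oxidase, rose from 42.5 to 54.3 CPM (0.35 ± 0.12, adjusted p 0.0278). The Idi1 call held without any of the 6 libraries, whereas those of Hmgcs1 (WT 1, WT 3, KO 1 or KO 2) and Msmo1 (WT 2, WT 3, KO 1 or KO 3) each ended without any of 4. Sqle, squalene epoxidase, rose in CD4-CD8- cells from 50.7 to 60.5 CPM (0.25 ± 0.09, adjusted p 0.038), and this call ended under 7 of 10 other settings and without any of 5 of the 6 libraries (all but KO 1).

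**Figure D3:**
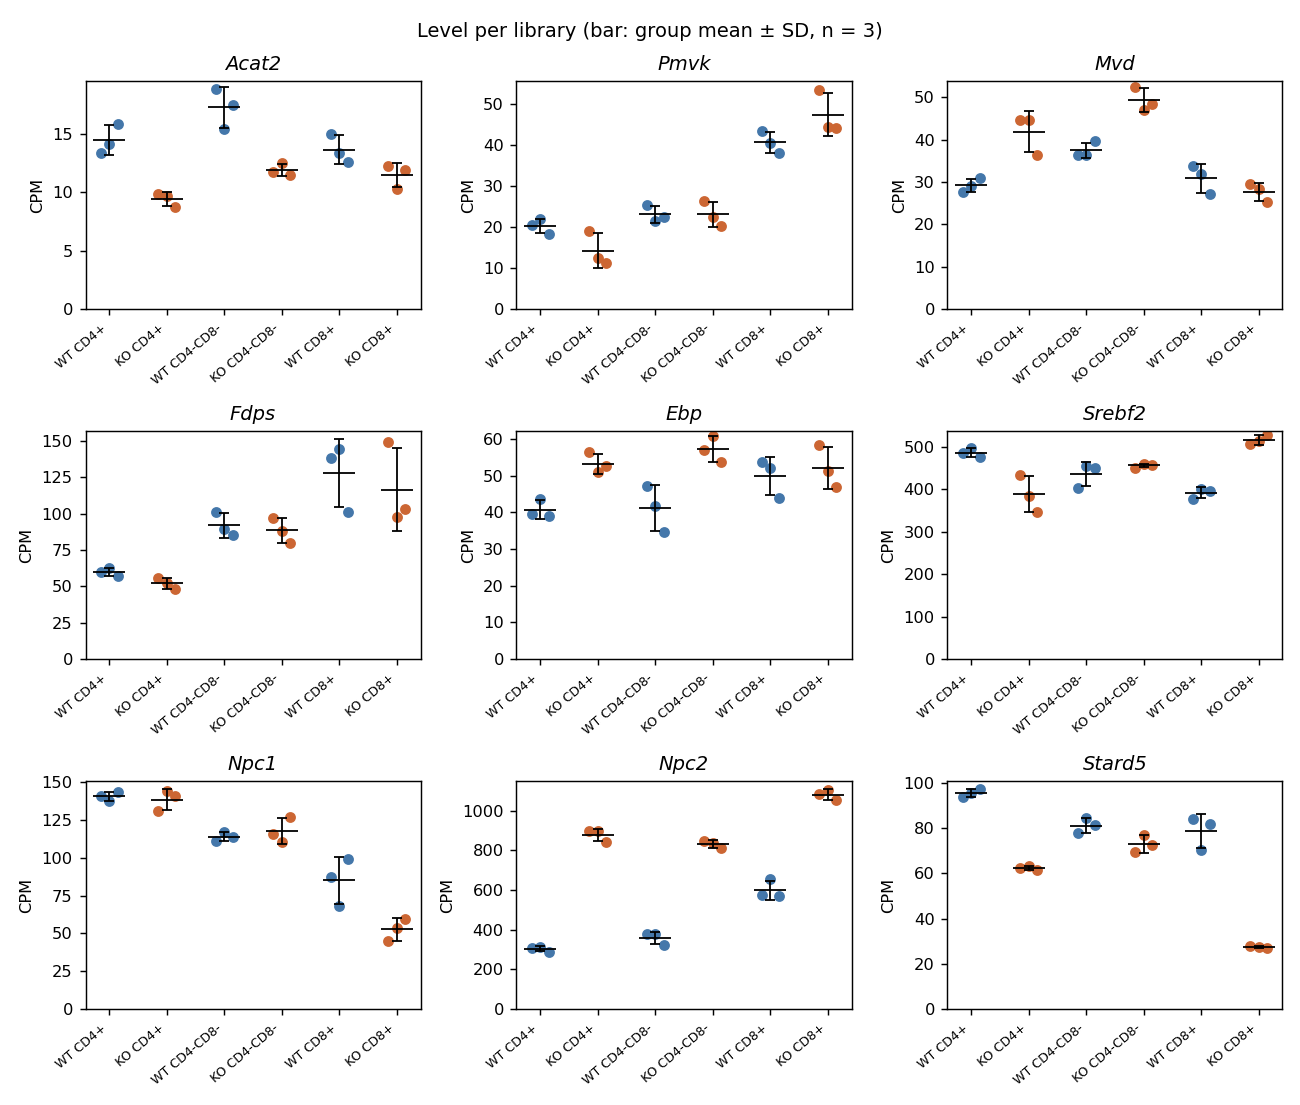
CPM in each of the 18 libraries for the 9 genes given library by library (blue WT, orange KO; bars are the group mean ± SD, n = 3; axes start at 0). The 3 KO libraries lie above the 3 WT libraries for Npc2 in each population, and for Stard5 the KO CD8+ libraries lie near 27 CPM.

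Srebf2, the gene of the pathway's transcription factor, changed in opposite ways in CD4+ cDC2 and CD8+ cDC1. Srebf2 (chromosome 15, 82147181 to 82205379, plus strand) held 486, 497 and 475 CPM in WT CD4+ and 433, 384 and 347 CPM in KO CD4+ libraries. CD4-CD8- libraries held 403, 454 and 450.2 CPM in WT, against 451, 459 and 458 CPM in KO. CD8+ libraries held 377, 401 and 396 CPM in WT, against 505, 513 and 527 CPM in KO. KO was below every WT library in CD4+ cells, above every WT library in CD8+ cells and overlapped WT in CD4-CD8- cells. Srebf2 fell by 0.32 ± 0.07 in CD4+ cells on the log2 scale (adjusted p 0.00272) and rose by 0.40 ± 0.08 in CD8+ cells (adjusted p 0.00142), with 0.06 ± 0.07 in CD4-CD8- cells (adjusted p 0.587). The CD4+ and CD8+ effects differed by -0.72 ± 0.11 (adjusted p 0.000109), a call kept under all 10 other settings. The rise in CD8+ cells was not called on either TPM scale or with a length offset (log2 0.18 to 0.40 over the 10 settings).

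Scap fell in CD4+ cells from 94.5 to 77.8 CPM (log2 -0.28 ± 0.08, adjusted p 0.0093), and Insig1, itself an SREBP2 target, rose there from 70.1 to 89.4 CPM (0.35 ± 0.12, adjusted p 0.033). The Insig1 call ended without any of 4 libraries (WT 2, WT 3, KO 2 or KO 3) and the Scap call without KO 3. Neither gene was called in the other populations, where their log2 changes ran from -0.03 to 0.06. Insig2 did not pass in any population (0.20, 0.29 and 0.17).

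Npc2 gave the largest rise of the set in every population. Npc2 (chromosome 12, 84754562 to 84773152, minus strand) held 306, 315 and 289.7 CPM in WT CD4+ libraries and 896, 896 and 843 CPM in KO. In the CD4-CD8- population, WT showed 376, 380.0 and 326 CPM and KO 845, 839.8 and 810.3 CPM. In the CD8+ population, WT showed 575, 655 and 570.2 CPM and KO 1087, 1104 and 1053 CPM. No KO library overlapped a WT library of its population, and every KO library of the 3 populations lay above every WT library of any population. The rise was 2.89-fold in CD4+ cells (log2 1.53 ± 0.07, adjusted p 2.93e-10), 2.31-fold in CD4-CD8- cells (1.21 ± 0.07, adjusted p 1.95e-08) and 1.80-fold in CD8+ cells (0.85 ± 0.07, adjusted p 7.11e-07). These calls held under all 10 other settings and without each library.

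The Npc2 effect was larger in CD4+ than in CD8+ cells by 0.68 ± 0.10 (adjusted p 0.00014). It was larger in CD4-CD8- than in CD8+ cells by 0.36 ± 0.10 (adjusted p 0.0311), a difference lost under 6 of 10 settings and without any of 5 libraries (WT CD4-CD8- 3, KO CD4-CD8- 1 or 2, WT CD8+ 2 or KO CD8+ 3). With protein-coding transcripts only, the rises were 1.59, 1.21 and 0.98. Of 9 red pulp macrophage markers, 7 rose and 1 fell in CD4+ cells, 3 rose and 1 fell in CD4-CD8- cells, and 2 fell in CD8+ cells. Their mean summed level in WT and KO was 187 and 801 CPM in CD4+, 130.2 and 308 CPM in CD4-CD8- and 93.8 and 59.0 CPM in CD8+ libraries, and their part in the Npc2 values was not tested.

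Npc1, the membrane partner of NPC2 (chromosome 18, 12189692 to 12236400, minus strand), did not move with it. WT CD4+ libraries held 141, 137 and 143 CPM, compared with KO at 131, 144 and 141 CPM. CD4-CD8- libraries held 111, 117 and 114 CPM in WT, against 116, 110.3 and 127 CPM in KO, and CD8+ libraries 87.3, 68.3 and 99.2 CPM in WT, against 44.9, 53.3 and 59.8 CPM in KO. Genotypes overlapped in both cDC2 populations and were apart in cDC1, where every KO library was lower. Npc1 fell by 0.69 ± 0.12 in CD8+ cells (adjusted p 0.000503), with -0.02 ± 0.11 and 0.05 ± 0.11 in CD4+ and CD4-CD8- cells (adjusted p 0.911 and 0.812). The effects differed from that in CD8+ cells by 0.67 ± 0.16 for CD4+ (adjusted p 0.00626) and 0.74 ± 0.16 for CD4-CD8- cells (adjusted p 0.00603). On both TPM scales and with a length offset these 3 calls were lost. The main coding transcript held 92.1% ± 6.08 of Npc1 TPM in WT and 69.2% ± 21.2 in KO CD8+ cells, and with protein-coding transcripts only the CD8+ change was -0.79 (adjusted p 0.000809). Npc1 shares 323 identical bases with Rmc1, a gene on the opposite strand. Rmc1 was called lower in CD4+ (-0.35, adjusted p 0.00686) and CD4-CD8- cells (-0.26, adjusted p 0.0495) but not in CD8+ cells (-0.04, adjusted p 0.835). Its part in the Npc1 values was not tested.

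Stard5, which encodes a cytosolic START-domain sterol-binding protein (chromosome 7, 83631959 to 83653127, plus strand), had the largest fall. WT CD4+ libraries held 93.8, 95.7 and 97.0 CPM, compared with KO at 62.5, 63.1 and 61.6 CPM. CD4-CD8- libraries held 77.6, 84.2 and 81.4 CPM in WT, against 69.3, 76.9 and 72.5 CPM in KO, and CD8+ libraries 84.0, 70.4 and 81.7 CPM in WT, against 28, 27.3 and 27.2 CPM in KO. KO lay below WT in each population without overlap, by a narrow margin in CD4-CD8- cells. The fall was -1.52 ± 0.07 in CD8+ cells (adjusted p 2.86e-09) and -0.61 ± 0.07 in CD4+ cells (adjusted p 1.88e-06), and -0.15 ± 0.07 in CD4-CD8- cells was not called (adjusted p 0.105). In TPM the CD4-CD8- fall was larger than in CPM. TPM carry the all-gene shifts given above (a median of -0.18 in these cells), and the reason for the larger fall was not tested. Stard5 went from 34.5 ± 5.36 TPM in WT to 21.8 ± 5.52 TPM in KO CD4-CD8- cells (SD, n = 3). In CD4+ cells it went from 37.0 ± 1.69 to 23.9 ± 1.77 TPM.

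The Stard5 effects in CD4+ and CD4-CD8- cells differed from the CD8+ effect by 0.90 ± 0.10 (adjusted p 4.6e-06) and 1.36 ± 0.10 (adjusted p 2.9e-07), and from each other by -0.46 ± 0.09 (adjusted p 0.0099). The last difference was 0.047 on log2(TPM + 1) and 0.051 on log2(TPM + 0.1), and not called on either. Stard5 overlaps Il16, a cytokine gene on the opposite strand, over 1088 identical bases, and the use of strand is not given in the sources used here. Il16 was called lower in CD4+ cells (-0.79, adjusted p 9.83e-06) and CD4-CD8- cells (-0.30, adjusted p 0.0338), where its part in the Stard5 values was not tested. In CD8+ cells, where Stard5 fell most, Il16 was at 159 CPM in WT and 150 CPM in KO (-0.09, adjusted p 0.636).

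Of the remaining transport genes, Stard3, a late endosomal sterol transfer protein, rose in CD4-CD8- cells from 53.8 to 69.1 CPM (log2 0.36 ± 0.10, adjusted p 0.0122). That call ended with protein-coding transcripts only (0.32, adjusted p 0.213), on both TPM scales, with a length offset and without any of 3 libraries (WT 2, WT 3 or KO 3). Stard4, a soluble sterol carrier, and Soat1, the esterifying enzyme, were not called in any population, with log2 changes from -0.14 to 0.08. Over the differences between KO effects, 6 members were called between CD4+ and CD8+ cells (21.4%, against 22.1% of all genes, with 12.6% higher and 9.54% lower). There were 5 between CD4-CD8- and CD8+ cells (17.9%, against 13.2%, with 8.24% higher and 4.92% lower) and 1 between CD4+ and CD4-CD8- cells (3.57%, against 3.76%, with 2.48% higher and 1.28% lower). On log2(TPM + 1) these all-gene calls split as 503 higher and 664 lower for CD4-CD8- against CD8+ effects and as 346 and 42 for CD4+ against CD4-CD8- effects.

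Wild-type populations differed in the level of several synthesis genes, which were lowest in CD4+ cDC2 for Fdps, Sqle and Nsdhl. Between CD4+ and CD8+ cells, where 45.6% of all genes were called, 7 of 18 synthesis genes were lower in CD4+ (38.9%, against 23% of all genes lower) and 0 were higher (against 22.6%), with 0 higher also in DESeq2 and at an unadjusted p under 0.05. Fdps (-1.10 ± 0.15, adjusted p 1.42e-05), Pmvk (-1.01 ± 0.16, adjusted p 6.43e-05), Nsdhl, a sterol dehydrogenase (-0.89 ± 0.11, adjusted p 3.35e-06), and Sqle (-0.82 ± 0.09, adjusted p 6.77e-07) were the largest. Lss, lanosterol synthase, Sc5d and Ebp were lower by smaller amounts (-0.68, -0.37 and -0.30). Between CD4-CD8- and CD8+ cells, 5 synthesis genes were lower and 3 higher in CD4-CD8- (against 21% and 21.9% of all genes). Pmvk, Fdps, Sqle, Lss and Nsdhl were lower (-0.82 to -0.35), and Acat2, Hmgcs1 and Mvd higher (0.27 to 0.34). Between CD4+ and CD4-CD8- cells, 5 were lower in CD4+ (27.8%, against 9.63% of all genes) and 0 higher (against 7.12%), with 0 higher also in DESeq2 and at an unadjusted p under 0.05. The genes were Hmgcs1, Mvd, Fdps, Sqle and Nsdhl, with differences from -0.62 to -0.34. The count was 2 without WT CD4+ library 2 or WT CD4-CD8- library 3, and 3 without library 1 of either group. In the comparison of CD4-CD8- with CD8+ cells, 0 genes were higher without WT CD8+ library 3 and 1 without WT CD4-CD8- library 1 or 3, 5 were higher without WT CD8+ library 1, and 3 were lower without WT CD4-CD8- library 2 or 3 or WT CD8+ library 1. On log2(TPM + 1) the calls over all genes split as 3259 higher and 1223 lower for CD4-CD8- against CD8+ cells and as 240 and 1387 for CD4+ against CD4-CD8- cells, with shifts of the median of 0.13 and -0.12. NK and T cell markers were highest in WT CD4-CD8- libraries, and their part in these differences was not tested.

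Transport genes differed from each other in their order over WT populations. Npc1 was higher in CD4+ than in CD8+ cells (log2 0.73 ± 0.11, adjusted p 6.07e-05), as were Soat1 (0.45 ± 0.09, adjusted p 0.000925) and Stard5 (0.28 ± 0.07, adjusted p 0.00244), while Npc2 was lower (-0.98 ± 0.07, adjusted p 1.19e-08). Of the 10 regulation and transport genes, 4 were higher and 2 lower in that comparison, against 22.6% and 23% of all genes. Between CD4+ and CD4-CD8- cells, 2 of the 10 were higher in CD4+ (Soat1, 0.49 ± 0.09, adjusted p 0.00166, and Stard5, 0.24 ± 0.07, adjusted p 0.0209) and 1 lower (Npc2, -0.25 ± 0.07, adjusted p 0.0274), against 7.12% and 9.63% of all genes. There the Stard5 call ended without WT CD4+ library 2 or 3 or WT CD4-CD8- library 1 or 3, and the Npc2 call without WT CD4+ library 1 or 3 or WT CD4-CD8- library 1 or 2. Npc2 was also lower in CD4-CD8- than in CD8+ cells (-0.73 ± 0.07, adjusted p 5.18e-07), and Npc1 higher (0.42 ± 0.11, adjusted p 0.00655). Insig2 was lower in both cDC2 populations than in CD8+ cells (-0.84 ± 0.15 and -0.83 ± 0.15, adjusted p 0.000227 and 0.000293), and Scap in CD4-CD8- cells (-0.39 ± 0.08, adjusted p 0.000583). Srebf2 was higher in CD4+ than in CD8+ cells (0.31 ± 0.08, adjusted p 0.00257).

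**Figure D4:**
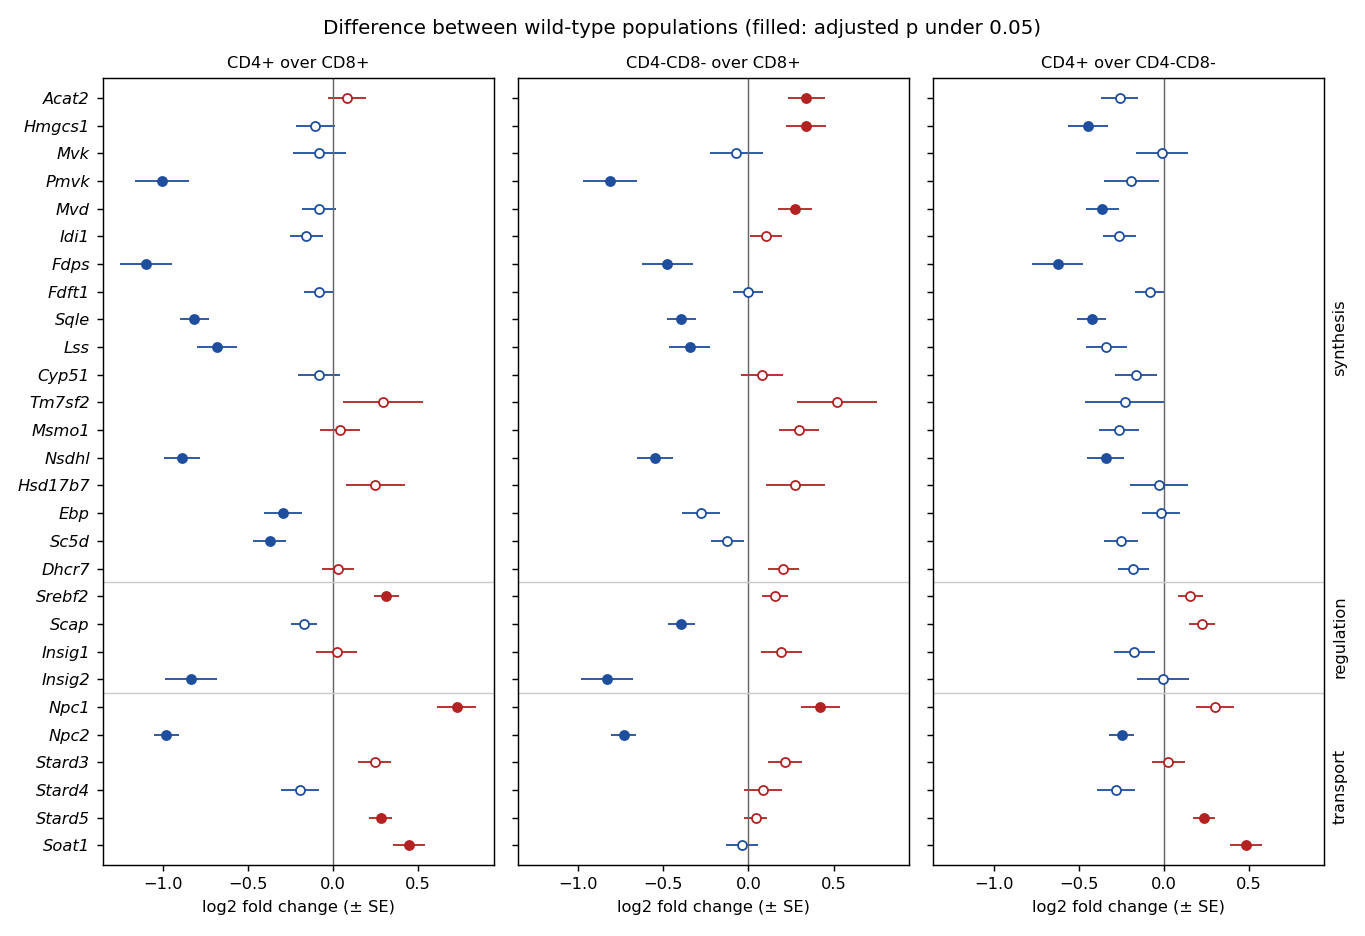
Log2 fold change of each member between WT populations with its standard error (filled points passed the test; red above 0, blue below). Fdps, Pmvk, Nsdhl and Sqle lie left of 0 for CD4+ over CD8+ at -1.10, -1.01, -0.89 and -0.82, and Npc1 right of it at 0.73.

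**Figure D5:**
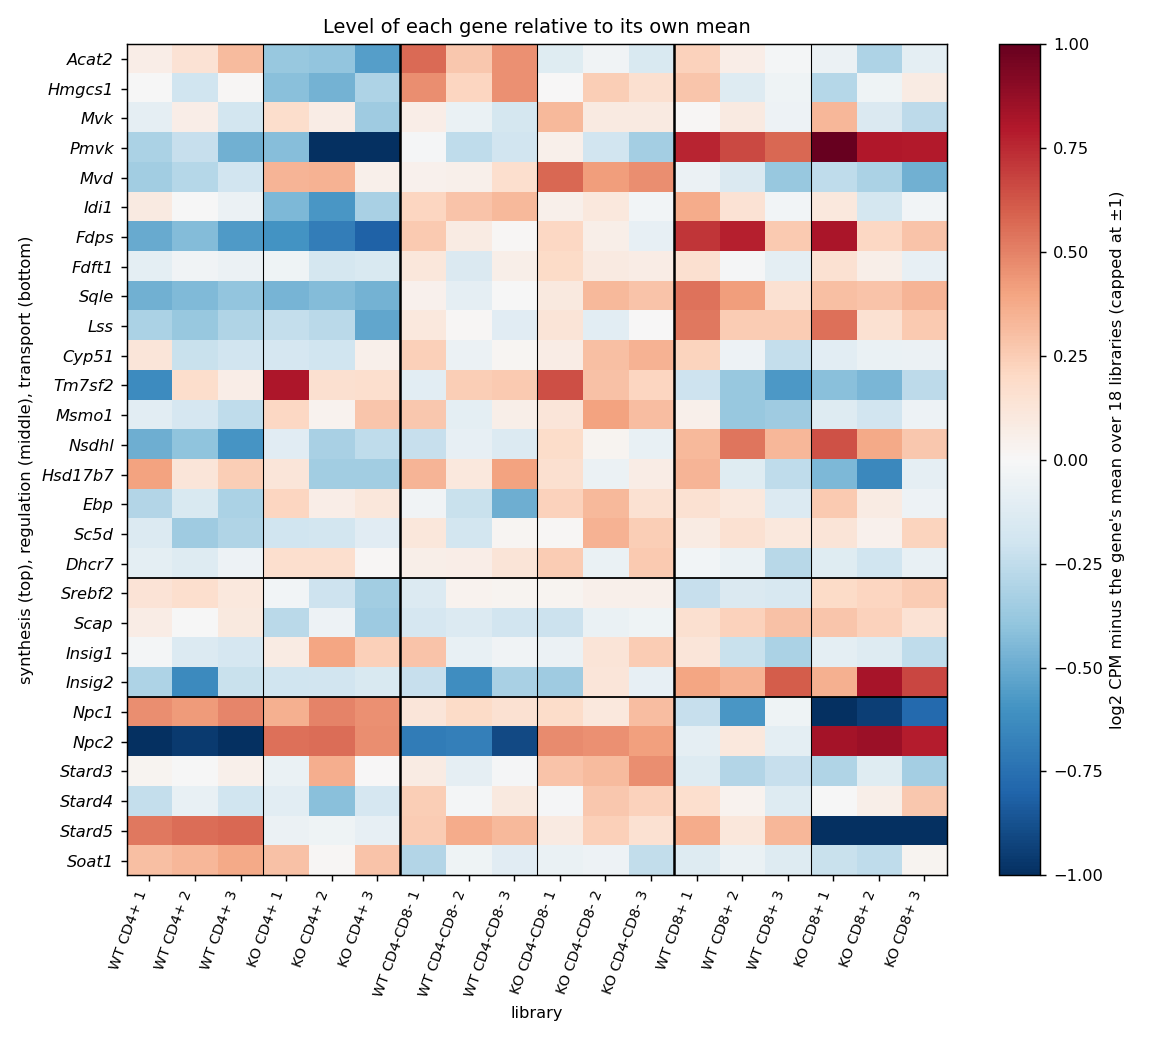
Log2 CPM of each member in each of the 18 libraries, relative to that gene's mean over all libraries and capped at ±1. Npc2 is below its mean in the 6 WT cDC2 libraries and above it in all 9 KO libraries, and Stard5 is lowest in the 3 KO CD8+ libraries.

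Among 22 other sterol genes, 7 rose and 3 fell in CD4+ cells (45.5% called, against 35.1% of all genes), 6 rose in CD4-CD8- cells (27.3% against 25.9%), and 2 rose and 3 fell in CD8+ cells (22.7% against 15.7%). Nceh1, a cholesterol ester hydrolase, rose in CD4+ cells from 30.6 ± 1.32 to 53.6 ± 5.73 CPM (SD, n = 3) and in CD4-CD8- cells from 32.2 ± 0.481 to 47.3 ± 3.08 CPM. Of 9 genes of the LXR pathway, which responds to oxysterols by raising efflux genes, 5 rose in CD4+ cells (Pltp 2.16 and Abca1 2.24, a lipid transfer protein and a cholesterol exporter, among them), 3 rose and 1 fell in CD4-CD8- cells, and 4 fell in CD8+ cells (Apoe -2.07 and Abcg1 -0.61 among them). The shares called were 55.6%, 44.4% and 44.4%, against 35.1%, 25.9% and 15.7% of all genes. Abcg1 rose in CD4+ and CD4-CD8- cells (0.56 and 0.40). Of 12 tested fatty acid synthesis genes, 3 rose and 1 fell in CD4+ and in CD4-CD8- cells and 1 rose and 1 fell in CD8+ cells, with Fads1, a desaturase, rising in each (1.41, 0.86 and 0.49). These shares (33.3%, 33.3% and 16.7%) stand against the same 35.1%, 25.9% and 15.7%. In the same CD4+ comparison 20 of 20 cell cycle genes fell, in CD4-CD8- cells 17 of 20, and in CD8+ cells 4 rose, beside 16.6% and 11.3% of all genes lower and 7.01% higher in those comparisons.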

How the data were processed

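RNA was measured in 18 libraries (6 groups of 3, grouped by title). Per the submitters' processing notes the authors used FastQC 0.11.8, Salmon 0.14.1 and build GRCm38; the transcript annotation and use of strand are not given in the sources used here. The authors deposited estimated counts per transcript and TPM per transcript for the whole series. Here both were summed per gene by the gene names in the tables, and of 152 transcripts without a name 37 were filled from GENCODE M21 and 115 dropped (in any library no more than 0.16% of its counts). Gene sums of estimated counts were rounded, filtered with filterByExpr and scaled by TMM in edgeR 4.0.16 (R 4.3.3). A quasi-likelihood model with 1 mean per group (12 residual degrees of freedom) gave 9 comparisons, two-sided, with Benjamini-Hochberg adjustment over 13381 genes. Gene positions are GRCm38 in GENCODE M21, promoters RefSeq GRCm38.p6, and shared sequence was found with blastn 2.17.0 (at least 95% identity over 300 bases).

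The fit was tested on simulated data for KO against WT in CD4+ cells (13381 genes), where 30 of 67 genes changed 1.5-fold, 42 of 67 changed 2-fold and 52 of 66 changed 4-fold were called, with 8 false calls among 132. No other gene was changed in the simulation, whereas 35.1% of genes were called in the real comparison. These rates therefore need not hold for the real data. Alternatives were DESeq2 1.42.0, RLE scaling, no filter, a filter at 5 CPM, limma 3.58.1 on log2(TPM + 1) and log2(TPM + 0.1), a length offset, a replicate block, only the groups compared, and leaving out each library; protein-coding transcripts only was added after seeing the data. Levels are given in every library for members called in at least 2 of the 3 genotype comparisons or in a difference between effects, and for the member of each role with the highest mean TPM; of the other lists, up to 4 called genes per comparison, by lowest adjusted p among those with a mean of at least 5 CPM in the higher group, were eligible for naming. Members and lists were chosen with earlier results of these data known. Marker lists are given by their summed CPM. A gene of the other lists that met the rule for naming is not reported here.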

Additional observations from a re-analysis of the deposited data

Results flagged for a closer look

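The effect of ADAM10 deficiency differed between populations for 6 members, by the test of the difference itself (edgeR's quasi-likelihood test with Benjamini-Hochberg adjustment, n = 3 libraries per group). Between CD4+ and CD8+ cells the log2 effects differed by 0.69 for Mvd (adjusted p 0.00189), 0.67 for Npc1 (adjusted p 0.00626), 0.68 for Npc2 (adjusted p 0.00014), -0.73 for Pmvk (adjusted p 0.0274), -0.72 for Srebf2 (adjusted p 0.000109) and 0.90 for Stard5 (adjusted p 4.6e-06). Between CD4-CD8- and CD8+ cells they differed by 0.56 for Mvd (adjusted p 0.0136), 0.74 for Npc1 (adjusted p 0.00603), 0.36 for Npc2 (adjusted p 0.0311), -0.33 for Srebf2 (adjusted p 0.049) and 1.36 for Stard5 (adjusted p 2.9e-07). Between CD4+ and CD4-CD8- cells only the Stard5 effects among the members differed, by -0.46 (adjusted p 0.0099). The first 2 sets of differences share the CD8+ libraries. The Mvd difference between CD4-CD8- and CD8+ cells was not called on either TPM scale or with a length offset. The Srebf2 difference between CD4-CD8- and CD8+ cells was lost in 11 of the 12 fits that leave out a library (all but WT CD4-CD8- library 1). It was also lost with the replicate block (-0.33, adjusted p 0.0542), on both TPM scales, with no filter, with a length offset and with protein-coding transcripts only. The Pmvk difference was lost in 6 of 12 fits that leave out a library (without WT CD4+ 1 or 2, KO CD4+ 2 or 3, WT CD8+ 3 or KO CD8+ 1).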

How the results depend on the processing

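Counts of called members below are those that moved by over 1.5 times, with the setting in brackets; the cause was not tested. Protein-coding transcripts only was chosen after seeing the data. For KO against WT CD4+, 3 synthesis higher became 1 (log2(TPM + 1)), 2 regulation and transport higher became 1 (both TPM scales, length offset), with, leaving out each library, 1 to 3 synthesis higher, 2 to 4 synthesis lower, 1 to 2 regulation and transport higher. For KO against WT CD4-CD8-, 3 synthesis higher became 0 (both TPM scales), 1 synthesis lower became 3 (both TPM scales) or 2 (only the groups compared), 2 regulation and transport higher became 1 (both TPM scales, length offset, protein-coding transcripts only), 0 regulation and transport lower became 1 (both TPM scales), with, leaving out each library, 1 to 2 regulation and transport higher. For KO against WT CD8+, 0 synthesis lower became 1 (both TPM scales, length offset), 2 regulation and transport higher became 1 (both TPM scales, length offset), 2 regulation and transport lower became 1 (log2(TPM + 1), length offset). For effects in CD4+ against CD8+, 1 synthesis higher became 2 (both TPM scales), with, leaving out each library, 0 to 1 synthesis lower, 1 to 2 regulation and transport lower. For effects in CD4-CD8- against CD8+, 1 synthesis higher became 0 (both TPM scales, length offset) or 2 (the replicate block), 3 regulation and transport higher became 1 (both TPM scales, length offset), 1 regulation and transport lower became 0 (both TPM scales, no filter, length offset, the replicate block, protein-coding transcripts only), with, leaving out each library, 0 to 2 synthesis higher, 0 to 1 regulation and transport lower. For effects in CD4+ against CD4-CD8-, 0 regulation and transport higher became 1 (DESeq2, the replicate block), 1 regulation and transport lower became 2 (DESeq2) or 0 (both TPM scales, length offset), with, leaving out each library, 0 to 1 synthesis lower, 0 to 1 regulation and transport higher, 1 to 2 regulation and transport lower. For WT CD4+ against CD8+, 7 synthesis lower became 4 (length offset), 4 regulation and transport higher became 2 (both TPM scales), 2 regulation and transport lower became 1 (both TPM scales, length offset). For WT CD4-CD8- against CD8+, 3 synthesis higher became 5 (both TPM scales) or 1 (protein-coding transcripts only), 5 synthesis lower became 3 (log2(TPM + 1)) or 1 (log2(TPM + 0.1)), 1 regulation and transport higher became 2 (DESeq2, only the groups compared) or 3 (both TPM scales) or 0 (protein-coding transcripts only), 3 regulation and transport lower became 1 (both TPM scales), with, leaving out each library, 0 to 5 synthesis higher, 3 to 6 synthesis lower, 1 to 2 regulation and transport higher. For WT CD4+ against CD4-CD8-, 2 regulation and transport higher became 1 (no filter, length offset, protein-coding transcripts only) or 0 (both TPM scales), 1 regulation and transport lower became 0 (both TPM scales, no filter, length offset) or 2 (only the groups compared), with, leaving out each library, 2 to 5 synthesis lower, 1 to 2 regulation and transport higher, 0 to 1 regulation and transport lower. The Sqle rise in CD4-CD8- cells turned to -0.054 and -0.059 on log2(TPM + 1) and log2(TPM + 0.1), and the Stard5 difference between CD4+ and CD4-CD8- effects to 0.047 and 0.051.

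Same-numbered WT and KO libraries did not deviate together (residual correlations -0.05 to 0.15, median 0.01, 9 pairs), so the numbers were not taken to pair the genotypes. Libraries of one genotype and number correlated at 0.05 to 0.26 across populations (median 0.15, 18 pairs), against a median of -0.07 for different numbers. All 3 pairs were above 0.1 between KO CD8+ and either KO cDC2 population, whereas no comparison of WT populations had all 3 above it. The replicate block ended the Srebf2 difference between CD4-CD8- and CD8+ effects and moved the counts that name it above. That block puts WT and KO libraries of the same number together. It therefore does not model the correlation within a genotype, and the effect of that correlation on the calls was not tested. Depth was least for Tm7sf2, with 34 to 121 counts per library.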
